A study of Mus musculus with 6 samples.

Results

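Dbp, Tef, Hlf, Nfil3, Usp2, Wee1, Bhlhe40 and Bhlhe41 are genes that the circadian clock drives, here called clock output genes. They were measured in liver tumours of male mice on 6 Affymetrix arrays, each taken as 1 mouse by the number in its title. Every probe set that the platform annotation pairs with a single symbol of this list was taken, which gave 14 of the 22626 probe sets tested and 8 of 12393 genes. The list was chosen by looking at earlier values of these same arrays, by genotype and by the number in each title, so both are given for its genes as a description. Each mouse had received 1 injection of the liver carcinogen DEN (N-nitrosodiethylamine), 10 µg per g of body weight, when 14 days old, and its liver was examined at 28 weeks. The wild-type group (WT) is C66, C107 and C108, and the Alb/AEG-1 transgenic group is C76, C80 and C106. The transgene carries AEG-1 under a name that joins it to Alb, the albumin gene of hepatocytes. CD-1 is the background strain in the labels of both groups, and B6CBAF1/J is named for the embryos behind the transgenic line. The founder line, the number of tumours per sample and the hour of day at collection are not given in the sources used here.

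The circadian clock is a feedback loop of transcription. Arntl (BMAL1) pairs with Clock or its relative Npas2, binds E-box sequences and switches on the Per and Cry genes, whose proteins inhibit the pair, while the nuclear receptors Nr1d1 and Nr1d2 (REV-ERB) repress Arntl. Dbp, Tef and Hlf encode the PAR bZIP factors, which activate genes through a sequence called the D-box, and Nfil3 encodes a related factor that represses through the same sequence and peaks opposite to Dbp in mouse liver. Usp2 encodes a deubiquitinating enzyme and Wee1 a kinase that holds back entry into mitosis. Bhlhe40 and Bhlhe41 (DEC1 and DEC2) encode repressors that bind E-boxes. In liver the PAR bZIP factors are known for their control of drug and haem metabolism.

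The RefSeq promoter table (GRCm38.p6, 250 bases before to 50 after an annotated start) held 7 windows for 6 of the 8 genes. The E-box CACGTG was in 3 of them, both Tef windows and that of Bhlhe41, against 7.15% of the 32851 windows of the table. Both strands were searched. Printed here in the direction of the gene, with the E-box in capitals, are the windows of the genes with an E-box and of Dbp and Usp2, which hold the probe sets with the widest spans (for Usp2 its second probe set, not the one with the highest mean).

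Tef, first window, chr15:81802423-81802722, plus strand: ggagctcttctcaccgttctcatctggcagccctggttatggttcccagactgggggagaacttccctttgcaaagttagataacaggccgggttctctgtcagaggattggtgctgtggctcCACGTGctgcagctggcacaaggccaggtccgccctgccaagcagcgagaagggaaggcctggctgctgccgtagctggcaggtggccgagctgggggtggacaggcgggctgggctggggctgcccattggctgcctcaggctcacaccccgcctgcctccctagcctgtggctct

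Tef, second window, chr15:81811164-81811463, plus strand: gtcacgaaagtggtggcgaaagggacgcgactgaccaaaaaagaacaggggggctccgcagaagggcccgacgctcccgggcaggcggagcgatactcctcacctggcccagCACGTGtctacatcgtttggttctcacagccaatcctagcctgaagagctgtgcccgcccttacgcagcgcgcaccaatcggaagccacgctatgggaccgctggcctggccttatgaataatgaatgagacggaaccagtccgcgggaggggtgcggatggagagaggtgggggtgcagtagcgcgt

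Bhlhe41, chr6:145865371-145865670, minus strand: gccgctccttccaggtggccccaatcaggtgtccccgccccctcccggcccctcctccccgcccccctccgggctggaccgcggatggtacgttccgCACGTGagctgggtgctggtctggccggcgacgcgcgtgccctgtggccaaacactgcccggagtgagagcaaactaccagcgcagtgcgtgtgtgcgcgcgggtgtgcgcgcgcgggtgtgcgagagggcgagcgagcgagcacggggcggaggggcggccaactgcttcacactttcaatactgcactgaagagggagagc

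Dbp, chr7:45704997-45705296, plus strand: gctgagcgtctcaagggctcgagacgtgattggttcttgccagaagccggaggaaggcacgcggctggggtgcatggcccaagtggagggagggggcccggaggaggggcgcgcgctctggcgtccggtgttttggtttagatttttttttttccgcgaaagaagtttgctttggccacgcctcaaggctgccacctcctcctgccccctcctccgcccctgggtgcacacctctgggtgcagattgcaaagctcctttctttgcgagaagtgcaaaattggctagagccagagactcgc

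Usp2, chr9:44084670-44084969, plus strand: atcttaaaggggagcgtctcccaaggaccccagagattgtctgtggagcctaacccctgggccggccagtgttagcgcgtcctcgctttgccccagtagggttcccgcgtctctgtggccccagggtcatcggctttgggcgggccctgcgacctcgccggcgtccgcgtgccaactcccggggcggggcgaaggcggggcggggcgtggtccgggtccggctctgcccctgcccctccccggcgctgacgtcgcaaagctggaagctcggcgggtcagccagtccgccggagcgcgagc

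The E-box began 127 and 138 bases before the start in the Tef windows and 153 bases before it in that of Bhlhe41. The Dbp and Usp2 windows do not contain these letters. The D-box TTANGTAA (2.32% of all windows) was in 0 of the 7, and so was the RORE, the element of REV-ERB and ROR receptors, searched as AA, any base and then TAGGTCA (0.219%). The core TAGGTCA alone (2.61%), searched after the full element had been, lies in the Nfil3 window. The cyclic AMP response element TGACGTCA (1.79%) was in the Hlf window, 9 bases before the start. A match describes letters, and which start the probe sets read was not examined.

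All values are log2 expression levels, so 1 unit is a doubling, and the median probe set lies at 5.83. Pairs of arrays correlated at 0.987 to 0.993 over probe sets, and having 3 arrays per group limits the precision. The 4 measured hepatocyte markers (Alb, Ttr, Apoa1 and Hnf4a) averaged 13.67 to 13.76 on the 6 arrays. Mtdh, the mouse gene for AEG-1, had a mean of 9.17 (SD 0.15, n = 3) for wild type and 9.37 (SD 0.21, n = 3) for Alb/AEG-1. Whether its probe set reads the transgene is not stated, so it does not check the genotype. The numbers in the titles, taken here as animal numbers, form a lower run (C66, C76 and C80) and a higher run (C106, C107 and C108). The lower run holds 1 wild-type mouse and the higher run 2, and the labels do not say what the numbers mark.

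By genotype, the clock output genes differed little next to their spread. With limma, 1 of 22626 probe sets (0.00442%) passed an adjusted p of 0.05 between genotypes and 8.06% passed an unadjusted p of 0.05. Of the 14 member probe sets 0 passed either. The genotypes did not overlap for 1 of the 14, that of Bhlhe41, against 14.7% of all probe sets, and nothing is read from these counts, given how the list was chosen. Taking for each gene its probe set with the highest mean, the difference (Alb/AEG-1 minus wild type) ran from -0.41 to 0.58, with a median of -0.13 against -0.01 over all genes. In 7 of the 8 genes, all but Bhlhe41, it was smaller than the SD among wild-type mice. Macrophage markers lay on the high side in Alb/AEG-1 mice, and 6 of 6 had a positive difference. Their mean level overlapped, at 6.77 to 7.08 in wild-type mice and 7.01 to 7.60 in Alb/AEG-1 mice, with Marco, the dimmest, at 4.81. Singly, Cd5l and Marco did not overlap between genotypes, and the other markers did. In limma Cd5l alone passed an unadjusted p of 0.05, with an adjusted p of 0.601. Within the higher run, where C106 is the Alb/AEG-1 mouse, the differences were 0.60 (Adgre1) to 0.99 (Cd5l). Within the lower run they were 0.18 for Marco and 0.14 for Cd5l, and -0.17 (Clec4f) to -0.01 (Adgre1) for the others. The part of macrophages in the members' values was not tested. In bulk tumour RNA, fewer cells of a type and less RNA per cell cannot be told apart.

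Dbp, an activator at the D-box, had the widest span of the 8 genes. Its brighter probe set, of a type that may bind related transcripts, was at 5.91, 10.17 and 6.59 in wild-type C66, C107 and C108 and at 7.77, 7.03 and 9.62 in Alb/AEG-1 C76, C80 and C106. Mice C107 and C106, 1 of each genotype, stood above the other 4. From lowest to highest the span was 4.26, or 19.1-fold, and both ends were wild type. The other Dbp probe set was at 5.77, 8.97 and 6.02 in wild-type C66, C107 and C108 and at 6.64, 5.97 and 8.46 in Alb/AEG-1 C76, C80 and C106, with the same 2 mice on top. The genotype difference of the brighter one was 0.58 ± 1.12 (SE), beside SDs of 2.29 among wild-type and 1.34 among Alb/AEG-1 mice. It was -0.24 without C66 and 1.89 without C107. With every mouse kept and the run of numbers as a term, it was 1.36 ± 0.86.

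Tef, the second PAR bZIP activator, had a smaller span. Its brightest probe set was at 7.71, 9.50 and 8.67 in wild-type C66, C107 and C108 and at 8.09, 7.85 and 9.16 in Alb/AEG-1 C76, C80 and C106. The 3 mice of the higher run were the highest, whatever their genotype. The genotype difference was -0.26 ± 0.48 (SE), and 0.17 ± 0.22 with the run of numbers as a term. Of its dim probe sets, one placed the higher run above the lower by 0.45 ± 0.14, and in the other the runs overlapped.

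Hlf, the third activator, moved little. The brighter probe set was at 7.41, 7.84 and 7.71 in wild-type C66, C107 and C108 and at 7.56, 7.53 and 7.60 in Alb/AEG-1 C76, C80 and C106. The whole span was 0.44, or 1.35-fold, and the 3 Alb/AEG-1 values lay inside the wild-type span. The genotype difference was -0.09 ± 0.12 (SE) there and -0.16 ± 0.16 on the other probe set.

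Nfil3, the repressor at the same sites, ran the other way. It was at 9.26, 8.11 and 8.82 in wild-type C66, C107 and C108 and at 8.98, 9.04 and 7.96 in Alb/AEG-1 C76, C80 and C106. The mice highest for Dbp, C107 and C106, were the lowest for Nfil3, and C66, the lowest for Dbp, was the highest. The genotype difference was -0.07 ± 0.36 (SE), and 0.28 without C106. With every mouse kept and the run as a term, it was -0.38 ± 0.19.

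Usp2 split the mice by number rather than genotype. The brighter probe set was at 6.31, 8.04 and 7.85 in wild-type C66, C107 and C108 and at 6.60, 6.58 and 7.77 in Alb/AEG-1 C76, C80 and C106. The other probe set was at 5.04, 8.72 and 8.32 in wild-type C66, C107 and C108 and at 5.49, 5.01 and 8.42 in Alb/AEG-1 C76, C80 and C106. On this second one the higher run lay within 0.41 and the lower run within 0.48, with a gap of 2.82 between them. The genotype differences were -0.41 ± 0.50 (SE) and -1.05 ± 1.15, and with the run as a term 0.05 ± 0.13 and 0.06 ± 0.18.

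Wee1 split the mice in the same way. The brighter probe set was at 6.58, 7.87 and 7.53 in wild-type C66, C107 and C108 and at 6.61, 6.62 and 7.85 in Alb/AEG-1 C76, C80 and C106. The lower run was nearly level across genotypes, with an SD of 0.02. The dimmer probe set was at 4.68, 5.57 and 5.39 in wild-type C66, C107 and C108 and at 4.66, 4.57 and 5.55 in Alb/AEG-1 C76, C80 and C106, again with every mouse of the higher run above the others. The genotype difference of the brighter one was -0.30 ± 0.42 (SE), and 0.09 ± 0.12 with the run as a term.

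Bhlhe40, an E-box repressor, also varied. It was at 8.02, 10.26 and 9.98 in wild-type C66, C107 and C108 and at 9.58, 8.56 and 9.64 in Alb/AEG-1 C76, C80 and C106. The runs did not overlap, but C76 came within 0.06 of C106. The genotype difference was -0.16 ± 0.58 (SE), and 0.28 ± 0.39 with the run as a term.

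Its relative Bhlhe41 stayed nearly flat, at 4.73, 4.74 and 4.68 in wild-type C66, C107 and C108 and at 4.65, 4.58 and 4.62 in Alb/AEG-1 C76, C80 and C106. These values lie below the median probe set, so a flat gene and a signal near background cannot be told apart. The genotype difference was -0.10 ± 0.08 (SE), with each Alb/AEG-1 mouse below each wild-type mouse. Tef and Bhlhe41 both have an E-box in the windows printed above, with spans of 1.79 and 0.16, and a link between motif and span was not tested.

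**Figure D1:**
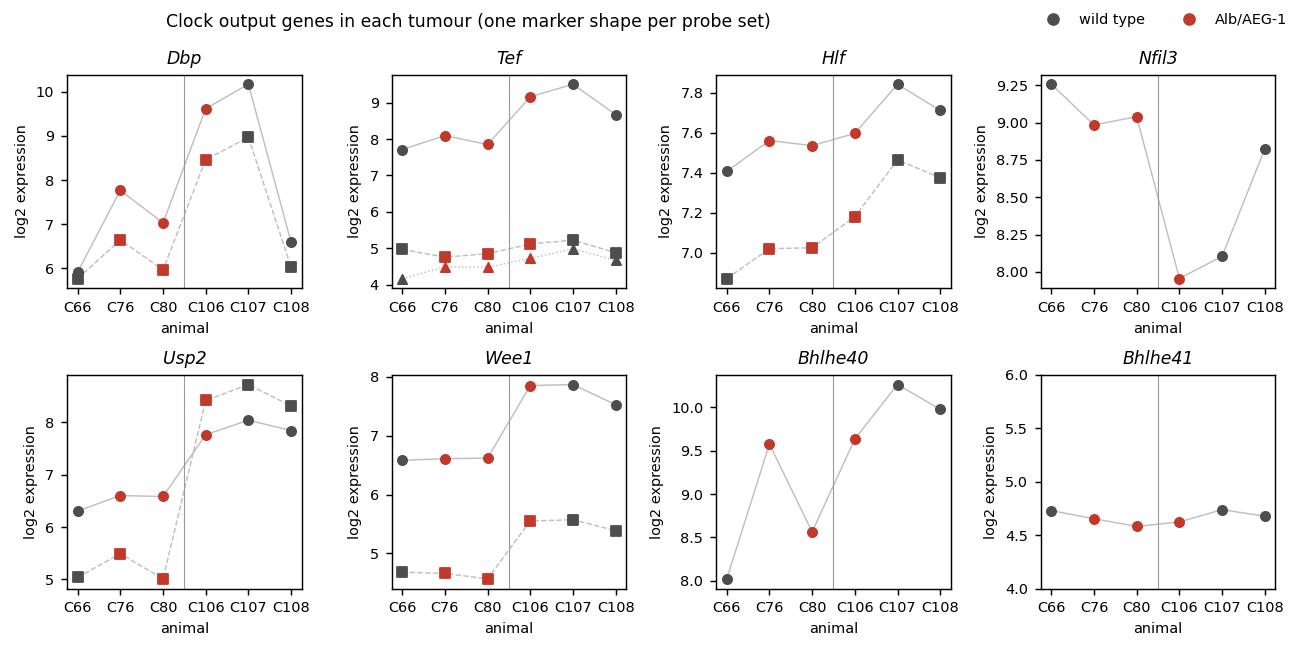
Log2 expression (vertical axes, scaled per gene) of the 8 clock output genes in each tumour, ordered by animal number, in grey for wild type and red for Alb/AEG-1, with a marker shape and a joining line for each probe set. Usp2 and Wee1 step up between C80 and C106, Dbp is high in C106 and C107 and at 6.59 on its brighter probe set in C108, and Bhlhe41 stays between 4.58 and 4.74.

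Set out by animal number, most of these genes differed in one direction within both genotypes. With genotype as a term, the second Usp2 probe set was 3.33 ± 0.18 (SE) higher in the higher run, or 10.0-fold. The difference was 3.48 within wild type, where C66 alone is in the lower run. It was 3.17 within Alb/AEG-1, where C106 alone is in the higher run. The brighter Usp2 probe set was 1.40 ± 0.13 higher, Bhlhe40 1.33 ± 0.39, Tef 1.28 ± 0.22 and Wee1 1.18 ± 0.12. Dbp was 2.34 ± 0.86 higher, with overlapping runs. Hlf was 0.21 ± 0.11 higher on its brighter and 0.35 ± 0.11 higher on its other probe set, and neither overlapped between the runs. Nfil3 was on the low side in the higher run, at -0.92 ± 0.19, and Bhlhe41 differed by -0.01 ± 0.09.

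Of the 14 probe sets, 9 lay entirely higher in the higher run, 1 (Nfil3) entirely lower, and 4 overlapped. Over all probe sets 15.8% were separated in this way, 7.93% higher and 7.85% lower. The second Usp2 probe set was the 1 of 22626 (0.00442%) past an adjusted p of 0.05 in limma between the runs. Nothing is read from these counts, since the list was chosen with such values known. That Usp2 call was lost when C66, C108, C80 or C106 was left out, with differences of 3.17 to 3.48. The Bhlhe40 difference was 0.57 without C66 and 2.10 without C106, and that of Hlf 0.05 and 0.37.

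Markers of other cells were set beside this split. The 5 T and NK cell markers averaged 4.42 to 4.46 in the lower and 4.54 to 4.62 in the higher run, with a positive difference for 5 of 5, and Gzma, the dimmest, at 3.67. The 4 measured cholangiocyte markers averaged 4.87 to 5.11 in the lower and 4.78 to 4.85 in the higher run, with Krt7, the dimmest, at 4.19. Yet 3 of these 4 had a positive difference, and Sox9 had a mean of 5.95 in the lower and 4.95 in the higher run. The hepatocyte, macrophage, B cell, neutrophil, endothelial and stellate lists overlapped between the runs. The part of T, NK and bile duct cells in the members' values was not tested.

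**Figure D2:**
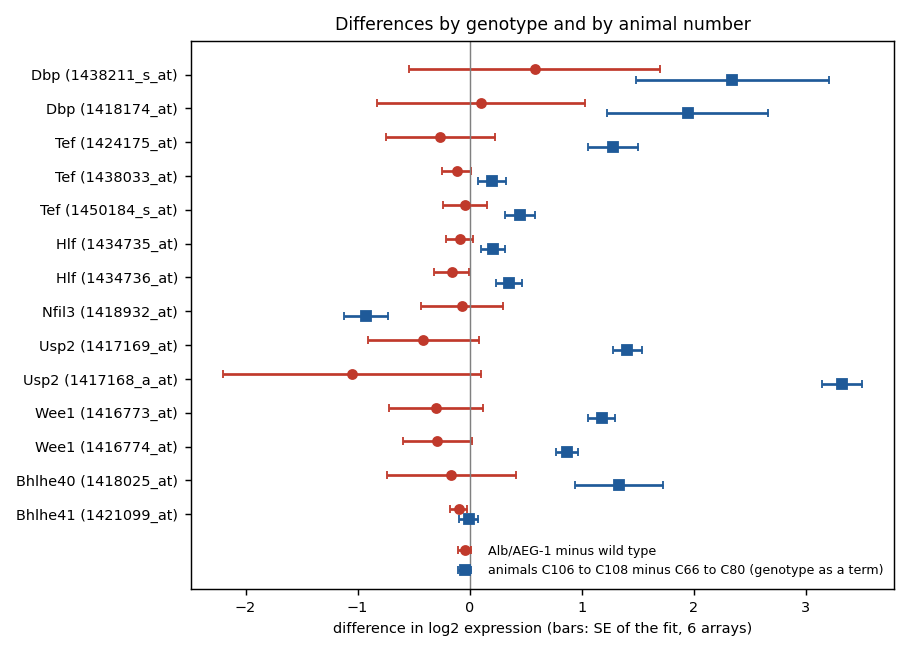
Difference in log2 expression for each of the 14 probe sets, as red circles for Alb/AEG-1 minus wild type and blue squares for the higher minus the lower run of animal numbers with genotype as a term; bars are the SE of each fit over 6 arrays. The genotype bars of 12 of 14 probe sets include 0, and the blue squares run from -0.92 for Nfil3 to 3.33 for the second Usp2 probe set.

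The higher run was not uniform. Between its wild-type mice, C107 exceeded C108 by 3.58 for Dbp and 0.83 for Tef, and the difference was -0.72 for Nfil3. It was 0.20 on the brighter Usp2 probe set and 0.34 for Wee1. C108 thus had the high Usp2 and Wee1 of its run with a Dbp level inside the range of the lower run. In the lower run, C76 had the highest Dbp and Bhlhe40. The 8 genes did not place the 6 mice in a single order.

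The core clock genes varied among the same mice. Of 18 listed genes 14 were measured, and in limma 0 passed an adjusted p of 0.05 by genotype or by run. By genotype 0 of 14 passed an unadjusted p of 0.05, with a median difference of -0.08 (-0.05 without C80). By run 6 of 14 did, against 8.76% of all probe sets, 4 of them higher and 2 lower in the higher run. That count was 3 without C66. This list and those that follow were chosen with earlier results of these arrays known, so their counts are a description and nothing is read from them.

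Among the activators, Npas2 was at 6.42, 3.45 and 4.07 in wild-type C66, C107 and C108 and at 5.77, 6.22 and 3.74 in Alb/AEG-1 C76, C80 and C106. It was high in the lower run, where Usp2 was low, with a difference of -2.46 ± 0.21 between the runs (limma, adjusted p = 0.0821). Arntl was at 7.77, 5.77 and 7.20 in wild-type C66, C107 and C108 and at 7.53, 7.82 and 6.46 in Alb/AEG-1 C76, C80 and C106, a difference of -1.25 ± 0.35 (limma, adjusted p = 0.393). As for Nfil3, the lowest Arntl values were those of C106 and C107, and C108 stood closer to the lower run.

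Among the inhibitors, Per3 was at 4.84, 7.68 and 5.81 in wild-type C66, C107 and C108 and at 5.20, 5.16 and 6.85 in Alb/AEG-1 C76, C80 and C106. As for Dbp, C107 and C106 were the highest. Per1 and Per2 were highest in C108, at 7.99 and 8.13, where Dbp was low. Cry1 was at 8.22 in C108 and between 6.83 and 7.03 in the other 5 mice, and Cry2 differed by 0.55 ± 0.15 between the runs. Of the REV-ERB genes, Nr1d1 was at 4.72 in C108 and between 5.20 and 5.80 in the others. Arntl2, a relative of Arntl, had each Alb/AEG-1 mouse below each wild-type mouse, with a genotype difference of -0.14 ± 0.08 (limma, adjusted p = 0.642). So did Cry1, at -0.47 ± 0.30 (limma, adjusted p = 0.677), though C80 (7.013) nearly met wild-type C107 (7.015). These were 2 of the 14 core clock genes, against 14.7% of all probe sets whose genotypes did not overlap. Nothing is read from this count, and Arntl2 lies below the median probe set.

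**Figure D3:**
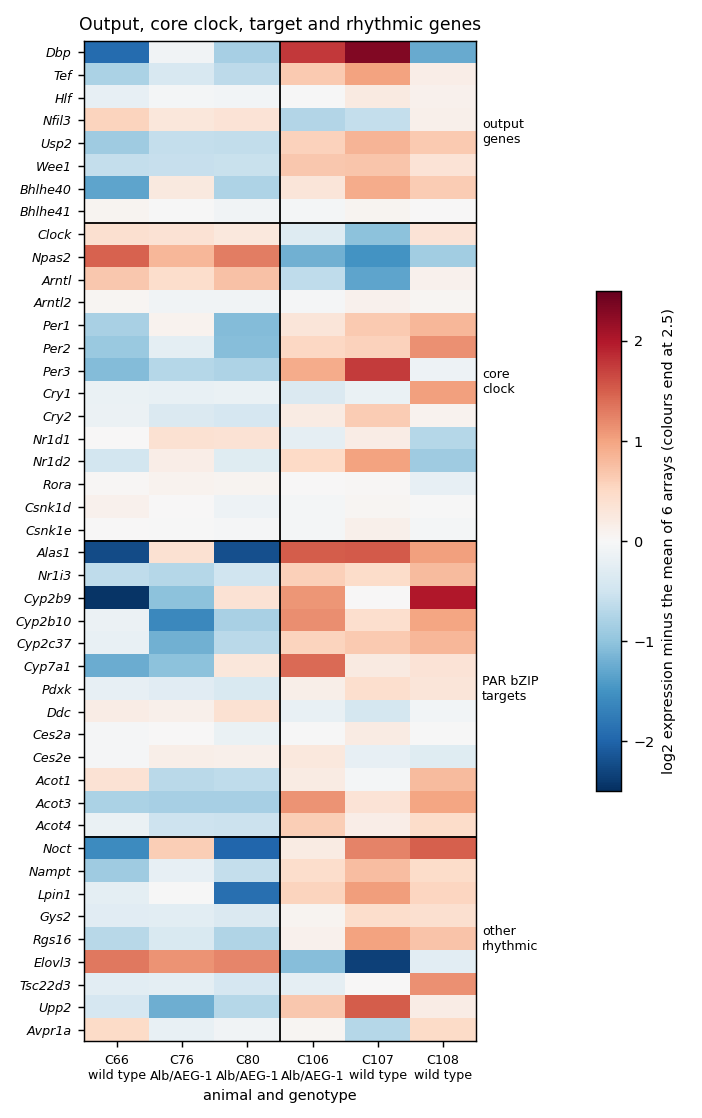
Log2 expression minus the gene's mean over 6 arrays (colour, blue for lower and red for higher, ending at 2.5) for the 8 clock output genes, 14 core clock genes, 13 reported targets of the PAR bZIP factors and 9 other rhythmic liver genes, with mice in order of number. Npas2, Arntl, Nfil3 and Elovl3 are red in the lower run on the left, and Usp2, Wee1 and Tef are red in the higher run on the right. In C108 the red of Tef and Wee1 is pale, and Arntl and Nfil3 are also slightly above their means.

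Genes reported as liver targets of the PAR bZIP factors were the next list. Of 16 listed genes 13 were measured, and in limma 0 passed an adjusted p of 0.05 by genotype or by run. By genotype 2 of 13 passed an unadjusted p of 0.05, against 8.06% of all probe sets, with a median difference of -0.30, and -0.01 with the run as a term. That median was -0.74 without C66, -0.68 without C106, -0.13 without C108, -0.13 without C76 and -0.05 without C80. By run 10 of 13 did, against 8.76% of all probe sets, 9 higher and 1 lower in the higher run, with a median difference of 1.21 against 0.003 over all genes.

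Alas1, which starts haem synthesis, was at 8.10, 11.88 and 11.36 in wild-type C66, C107 and C108 and at 10.72, 8.15 and 11.85 in Alb/AEG-1 C76, C80 and C106. C76 stood nearer to the higher run than to C66 and C80. Nr1i3, the xenobiotic receptor CAR, differed by 1.22 ± 0.12 between the runs (limma, adjusted p = 0.0839), Cyp2c37, a cytochrome P450, by 1.21 ± 0.19 and Pdxk, pyridoxal kinase, by 0.51 ± 0.09. Ddc, aromatic amino acid decarboxylase, was the 1 of the 10 in the other direction, at -0.43 ± 0.13. The 2 genes past an unadjusted p of 0.05 by genotype were the carboxylesterase gene Ces2e, at 0.36 ± 0.10 (limma, adjusted p = 0.596), and the acyl-CoA thioesterase gene Acot1, at -0.74 ± 0.28 (adjusted p = 0.611).

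Other genes with daily rhythms in mouse liver were examined in the same way. Of 12 listed genes 9 were measured, and in limma 0 passed an adjusted p of 0.05 by genotype or by run. By genotype 0 passed an unadjusted p of 0.05, with a median difference of -0.59, and -0.22 with the run as a term. That median was -0.35 without C107, -0.22 without C108 and -0.18 without C80. By run 7 of 9 did, against 8.76% of all probe sets, 6 higher and 1 lower in the higher run. Rgs16, a regulator of G protein signalling, differed by 1.12 ± 0.22, Lpin1, a phosphatidate phosphatase, by 1.27 ± 0.47 and Gys2, liver glycogen synthase, by 0.54 ± 0.11. Elovl3, a fatty acid elongase, went the other way, at 11.70, 8.04 and 10.12 in wild-type C66, C107 and C108 and at 11.50, 11.60 and 9.31 in Alb/AEG-1 C76, C80 and C106. Its 3 lowest mice, C107, C106 and C108 in that order, were also those of Arntl. Tsc22d3, a glucocorticoid-induced gene, was at 11.20 in C108 and between 9.64 and 10.08 elsewhere.

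The partners of Wee1 at the entry into mitosis were examined beside it. Of 9 listed genes 8 were measured, and in limma 0 passed an adjusted or unadjusted p of 0.05 between the runs, against 8.76% of all probe sets at the unadjusted p, with a median difference of -0.04. That count was 1 after quantile normalization and without C108 or C76. All of these partners but Cdk1 lie below the median probe set, so flat genes and signals near background cannot be told apart. Cdk1, the kinase that Wee1 inhibits, was at 5.89, 5.74 and 5.78 in wild-type C66, C107 and C108 and at 5.72, 6.31 and 6.10 in Alb/AEG-1 C76, C80 and C106, with overlapping runs. By genotype 1 of 8 passed an unadjusted p of 0.05, against 8.06% of all probe sets: Pkmyt1, a related inhibitory kinase, at -0.30 ± 0.11 (limma, adjusted p = 0.609). On the other, dimmer Pkmyt1 probe set the difference was -0.03 ± 0.14, with overlapping genotypes. Ccnb2, a mitotic cyclin, differed by 0.36 ± 0.15 between genotypes and Cdc25b, a phosphatase that opposes Wee1, by 0.15 ± 0.12.

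Hypoxia targets were included because low oxygen induces Bhlhe40 and Bhlhe41. Of 12 listed genes 11 were measured, and in limma 0 passed an adjusted p of 0.05 by genotype or by run. By genotype 0 passed an unadjusted p of 0.05, with a median difference of 0.02, which lay between -0.05 without C76 and 0.06 without C106. By run 3 of 11 did, against 8.76% of all probe sets: the mitophagy gene Bnip3, at 0.88 ± 0.11, the pyruvate dehydrogenase kinase gene Pdk1, at 0.78 ± 0.31, and Ndrg1, at -0.92 ± 0.17. Egln3, a prolyl hydroxylase of the hypoxia pathway, differed by -0.07 ± 0.11 between the runs and Car9, a carbonic anhydrase, by 0.08 ± 0.11.

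**Figure D4:**
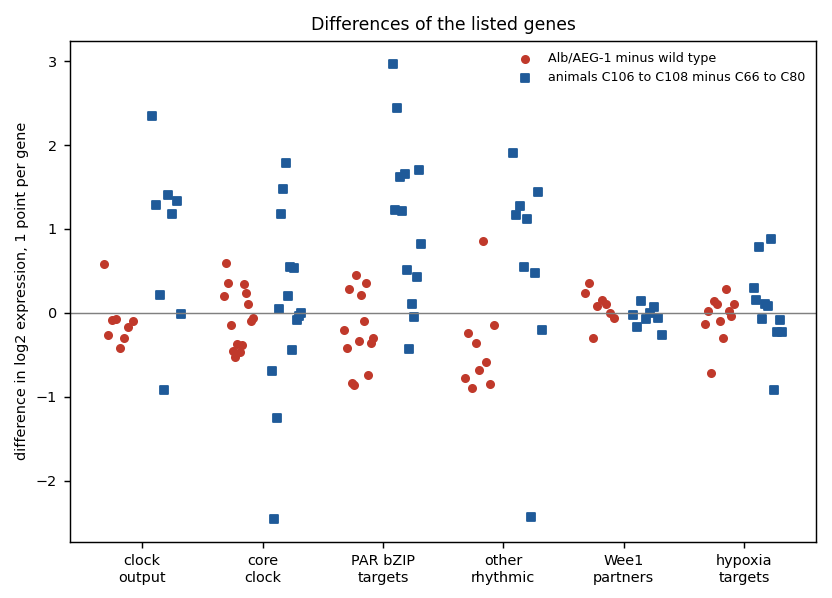
Difference in log2 expression of each gene (1 point per gene) for the clock output genes and 5 lists, as red circles for Alb/AEG-1 minus wild type and blue squares for the higher minus the lower run of animal numbers with genotype as a term. Blue squares spread from -2.46 (Npas2) to 2.97 (Alas1). Those of the Wee1 partners stay close to 0, though all of these partners but Cdk1 lie below the median probe set.

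Likeness to Dbp over the 6 arrays was taken among the 748 other genes above the median level with an SD of at least 0.3, as Pearson's correlation with its brighter probe set. Dbp was high in C106 and C107 and lower in the other 4 mice, so those 2 weigh heavily in these correlations. The correlations are given without a p, and below also without those 2 mice. The highest were those of Rpl12 (0.998), Cadm4 (0.941), Gpr146 (0.937), N4bp2l1 (0.931) and the clock gene Nr1d2 (0.928). The lowest were those of Clpx (-0.964), Pdgfc (-0.930), Nfil3 (-0.929), Apcs (-0.923) and Prkd3 (-0.917). Spearman's rho was 0.943 for Nr1d2 and -0.771 for Nfil3. Without C106 and C107 the Pearson correlation was 0.985 for Rpl12, 0.989 for N4bp2l1, 0.838 for Cadm4, 0.711 for Nr1d2 and 0.586 for Gpr146. It was -0.856 for Pdgfc, -0.837 for Clpx, -0.531 for Prkd3, -0.492 for Apcs and -0.477 for Nfil3. Among the other members, Tef ranked 16th from the top, Wee1 55th, Bhlhe40 86th and Usp2 90th. Without those 2 mice their correlations were 0.164 for Tef, -0.177 for Wee1, 0.531 for Bhlhe40 and -0.0172 for Usp2, so the likeness of Tef, Wee1 and Usp2 to Dbp rested on C106 and C107.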

How the data were processed

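Expression was measured in liver tumours of male mice on 6 Affymetrix arrays, 3 wild-type and 3 Alb/AEG-1. The deposited values are log2 expression levels per probe set, for which the submitters' processing notes name RMA, a method that makes the overall distribution of values alike on every array. Of 22690 probe sets the 64 Affymetrix controls were left out. Of the other 22626, 20380 had 1 gene symbol in the platform annotation, 691 several and 1555 none, and genes were named from the first kind alone.

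Groups came from the genotype labels, with replicates numbered in accession order. The labels give each sample its own number but do not otherwise state separate animals, so p-values measure the spread between these samples. Differences were fitted by limma (version 3.58.1, R 4.3.3), with lmFit, eBayes and a 2-sided test, adjusted by Benjamini-Hochberg over all 22626 probe sets: by genotype, and by run of animal numbers with genotype as a term. A gene's value is that of its probe set with the highest mean. The fit was tested on simulated data. The members and lists were chosen with earlier results of these data known. In each list the 4 genes with the smallest unadjusted genotype p were named, with Arntl, Npas2, Nr1d1 and Per3. Per1, Per2, Alas1, Nr1i3, Ddc, Elovl3 and Ndrg1 were added after their values were seen, as was the short TAGGTCA motif. The alternatives were other moderation, normalization, probe set filters and array weights, the run as a term, and each array left out. Figures used matplotlib 3.10.9 (Python 3.11.15).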

Additional observations from a re-analysis of the deposited data

Results flagged for a closer look

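In 6 of the 37 probe sets examined for it, Alb/AEG-1 mice C76 and C80 both lay on one side of wild-type C66, while Alb/AEG-1 C106 lay on the other side of both C107 and C108 (wild type). Over all 22626 probe sets 20.5% show this, and the difference between the runs was not tested. For Bhlhe40 the genotype difference was 1.05 among C66, C76 and C80 and -0.49 among the other 3 mice, a change of -1.53. For the brighter Usp2 probe set it was 0.29 and -0.18, a change of -0.47. For Hlf it was 0.14 and -0.18 on the brighter probe set, a change of -0.32, and 0.15 and -0.24 on the other, a change of -0.39. Among hypoxia targets it was -1.02 and 0.10 for Pdk1, a change of 1.11, and 0.15 and -0.17 for Bnip3, a change of -0.32.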

How the results depend on the processing

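The count of probe sets past an adjusted p of 0.05 by genotype in limma, 1, was 2 with a trend in the moderation, 0 with the run of animal numbers as a term and 0 to 1 with an array left out, and under each of these settings 0 member probe sets passed. By run the count of 1 was 9 with no genotype term, 9 with robust moderation and 0 to 13 with an array left out. Wee1 was called beside Usp2 with no genotype term and with robust moderation. The count of core clock genes at an unadjusted p below 0.05 by run, 6, was 3 to 8 with an array left out, and that of Wee1 partners, 0, was 0 to 1, and 1 after quantile normalization. The median genotype difference of the Wee1 partners, 0.10, was 0.01 to 0.17 with an array left out. Without dim probe sets Cdk1 alone was left of these partners, so the value there, 0.24, is that of a single gene. The median genotype difference of the 8 members, -0.13, lay between -0.46 without C66 and 0.07 with the run as a term. Of 119 alternative genotype differences of single members 13 had the other sign, and of 111 by run 4 did, all of Bhlhe41. The cause of these changes was not tested. Alternatives for the runs were chosen after seeing the data. No paired analysis was possible because the labels give no replicate number shared between groups. Having 3 arrays per group limits what can be detected.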
